A study of Xenopus laevis with 64 samples.

Results

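The 2 D-type cyclin genes on a cDNA array of Xenopus laevis, ccnd1.L and ccnd2.L, were followed over 20 groups of tadpole hindlimbs and tails. Members were found by the gene symbol given for the spots, updated through the Entrez gene number where the symbol was old, and they are 2 of the 230 named genes on the array. The gene ccnd1.L was spotted as pair 214, in spots 427 and 428. The gene ccnd2.L, listed under its older symbol ccnd2-A, was spotted as pair 215, in spots 429 and 430. Both symbols end in .L, which marks the gene copy on the longer chromosome of each pair of duplicated chromosomes in this species. The array held no spot named for the .S copies, and whether the .L spots also bound their transcripts was not tested.

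D-type cyclins are the regulatory partners of the kinases Cdk4 and Cdk6. The complexes phosphorylate the retinoblastoma protein, which releases E2F transcription factors and lets a cell pass from the G1 phase into DNA replication, and growth factor and developmental signals act on this step through the level of the cyclins. During amphibian metamorphosis thyroid hormone drives the growth of the hindlimb, where cells divide, and the regression of the tail, where cells die.

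Tadpoles at NF stage 54, an early stage of limb growth before the climax of metamorphosis, were exposed continuously to 1.92 nM T3, the active thyroid hormone, or to 10 nM T4, its precursor, or to 1 of 3 inhibitors of hormone production. Propylthiouracil (PTU, 20 mg/L) and methimazole (MMI, 100 mg/L) block thyroid peroxidase, and perchlorate (PER, 4 mg/L) blocks the uptake of iodide. T3 and T4 each had a control group of their own in the water used for the exposures, and the 3 inhibitors shared 1 control group in each tissue and time. Hindlimbs were taken at 24 h from all 8 kinds of group and at 96 h from the 4 groups of the inhibitor experiment, and tails at 48 h from all 8. The T3 and T4 groups had 4 animals each and all other groups 3, with 1 array per animal, which gave 38 hindlimb and 26 tail arrays.

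RNA labelled with phosphorus-32 was hybridised to 812 spots in neighbouring pairs, and the values are background-subtracted spot intensities. A pair was called above background where its mean exceeded 2 times the noise SD of its array, which was estimated from the values below 0. Across the 64 arrays this noise SD ran from 211 to 1928, and between 22 and 93 pairs were above background. Each treatment was run in more than 1 tank and the animals cannot be assigned to them, so p-values measure the spread between these animals.

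In hindlimb both cyclins were bright on every array that measured them. The intensity of ccnd1.L ran from 3040 to 21786 with a median of 7010, and all 38 arrays were above background. The intensity of ccnd2.L ran from 7228 to 41589 with a median of 16872 over the 37 arrays that measured it, all above background. On the remaining array, MMI at 24 h, replicate 1, both spots of ccnd2.L were blank, and that group rests on 2 animals for this gene in every fit. In tail the same pairs were dim. The tail values of ccnd1.L ran from −554 to 4136 with a median of 932, and 11 of 26 arrays were above background. The tail values of ccnd2.L ran from 61.6 to 8042 with a median of 1653, and 14 of 26 were above background.

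The spread between arrays of a group was wider in tail. With 1 array per animal it holds measurement noise as well as differences between animals, and the 2 cannot be told apart. On log2 values normalized within each tissue, the SD within groups was 0.33 for ccnd1.L and 0.21 for ccnd2.L in hindlimb, and 0.89 and 0.79 in tail. The duplicate spots of ccnd2.L lay within 2-fold of each other on all 37 hindlimb arrays. Those of ccnd1.L differed by more than 2-fold on 5 hindlimb arrays, and on PTU at 24 h, replicate 1, they read 7619 and 0. In tail the duplicates of ccnd1.L differed by more than 2-fold on 10 arrays and those of ccnd2.L on 9, and a further 6 and 5 arrays held a spot that was not positive.

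Ordered by their mean log2 level over all 64 arrays normalized together, the 12 hindlimb groups stood above the 8 tail groups for both genes. For ccnd1.L the hindlimb means ran from 13.08 with MMI at 24 h down to 12.21 with PTU at 24 h, and the tail means from 11.29 with PTU down to 10.14 in the inhibitor controls. None of the 19 steps between neighbours in this order exceeded 2 SE of the difference, and the steps ran from 0.01 to 0.92. For ccnd2.L the hindlimb means ran from 14.06 with PTU at 24 h down to 13.29 with PER at 96 h, and the tail means from 11.78 with T3 down to 10.45 in the inhibitor controls. Its single step over 2 SE was the one between the lowest hindlimb group and the highest tail group, at 1.51 (SE 0.41), and the other 18 ran up to 0.53. Neighbours were set by sorting the means, which makes the steps within a tissue small, and the SE pools both tissues. The steps therefore cannot decide whether groups within a tissue differ.

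**Figure D1:**
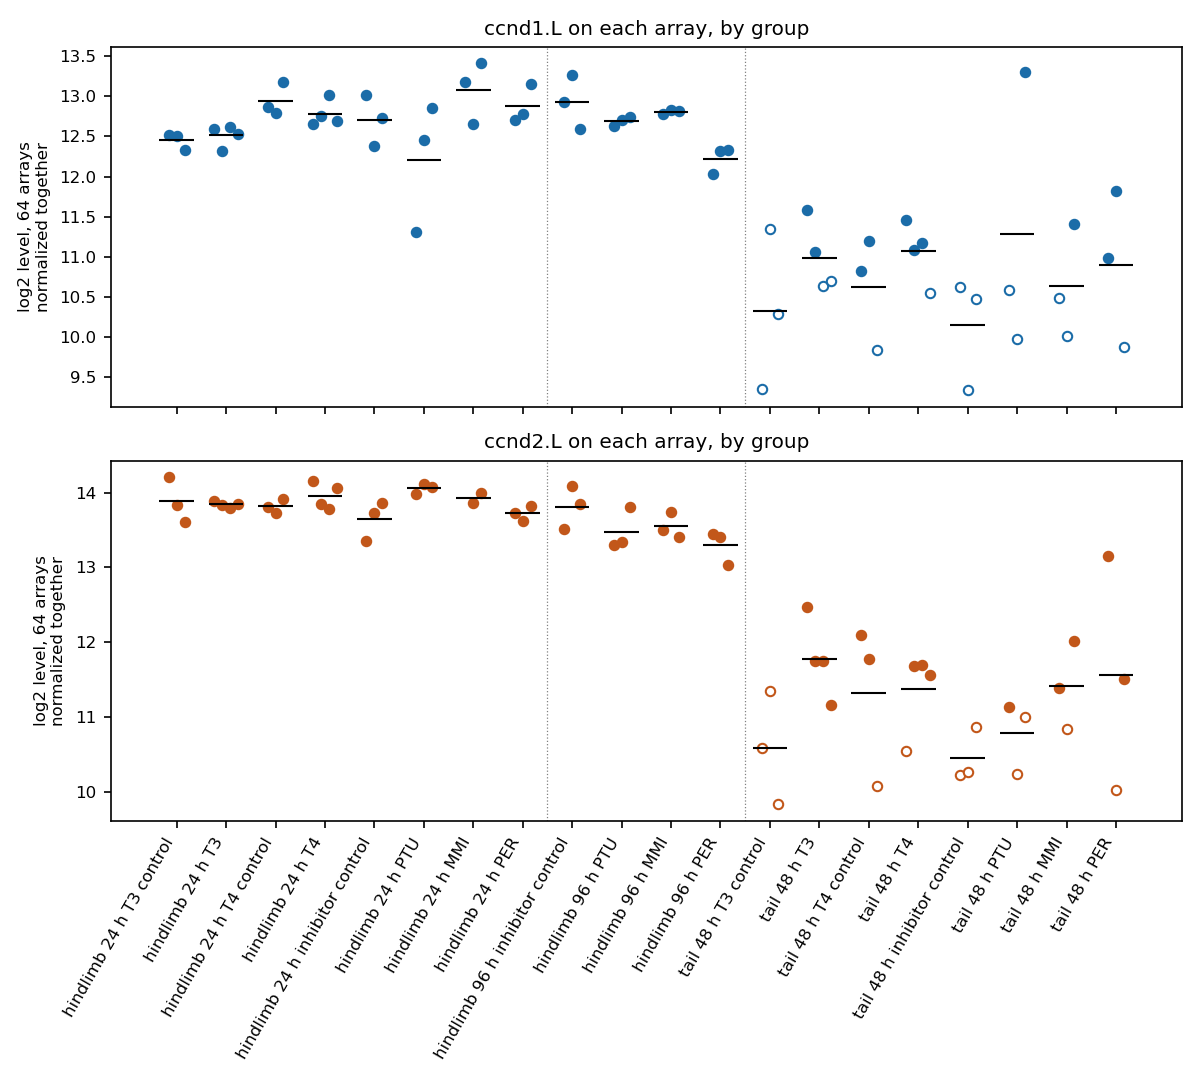
Log2 level of ccnd1.L (upper panel) and ccnd2.L (lower panel) on each array, for 20 groups, with all 64 arrays normalized together. Filled points were above background, open points were not, black bars are group means and dotted lines part the hindlimb at 24 h, the hindlimb at 96 h and the tail. The hindlimb means of ccnd1.L lie between 12.21 and 13.08 and its tail means between 10.14 and 11.29.

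The plot of levels by group shows how far single animals overlapped between the tissues. For ccnd1.L the lowest hindlimb array, the PTU animal with an empty spot, stood at 11.31, and 6 of 26 tail arrays exceeded it. The next lowest hindlimb array stood at 12.03, and 1 tail array, PTU replicate 3, exceeded that with 13.3. For ccnd2.L 1 tail array, PER replicate 1, stood at 13.15, between the lowest hindlimb array at 13.03 and the next at 13.29.

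The comparison of untreated tails at 48 h with untreated hindlimbs at 24 h shows how the cyclins differed between an organ that grows and one that regresses later. Tissue and time differ together here, and in a whole organ fewer cells that express a gene cannot be told apart from less RNA per cell. Both cyclins were lower in tail in each of the 3 pairs of control groups. In the T3 and the inhibitor controls no tail array was above background. There the hindlimb mean of ccnd1.L was 2.24-fold and 3.98-fold over a limit set for the tail arrays, which is defined below. For ccnd2.L the hindlimb mean was 6.04-fold and 7.40-fold over it. These values leave out the spread between animals, so smaller drops are not excluded.

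In the hindlimbs of the T3 controls ccnd1.L read 4456, 3734 and 7797, and in their tails −554, 2021 and 618, none above background. In the T4 controls it read 7127, 4262 and 3854 in hindlimb and 1000.2, 1351 and −4.44 in tail, of which the first and second were above background. In the inhibitor controls it read 6425, 3801 and 17024 in hindlimb and 375, −192 and 217 in tail, none above background. No tail value of ccnd1.L reached the lowest hindlimb value of its own control set.

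For ccnd2.L the T3 controls read 22347, 11551 and 16769 in hindlimb and 1298, 2150.3 and 61.6 in tail, none above background. The T4 controls read 13504, 13253 and 13133 in hindlimb and 4992, 2833 and 229 in tail, of which the first and second were above background. The inhibitor controls read 8782, 13576 and 33267 in hindlimb and 244, 302 and 355 in tail, none above background. The tail values of ccnd2.L, too, stayed below every hindlimb value of their set.

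The fitted difference, tail minus hindlimb over the 3 control sets, was −2.34 on the log2 scale for ccnd1.L (SE 0.29, 95% interval −2.91 to −1.76, adjusted p = 9.4e-10 with limma). For ccnd2.L it was −3.00 (SE 0.25, 95% interval −3.51 to −2.48, adjusted p = 1.64e-14). In each gene 2 of 9 tail control arrays and 9 of 9 hindlimb control arrays were above background, so most tail signals behind these differences were not above background and no exact fold is given. Of the 69 pairs tested in this comparison 37 passed, 53.6%, with 19 higher and 18 lower in tail, and the median difference over all tested pairs was −0.0072. A tissue difference was thus common on this array, and both cyclins lay among the lower pairs. An exact two-sided permutation test over the 9 tail and 9 hindlimb control arrays gave p = 4.114e-05 for each gene, the smallest that 48620 arrangements allow. On that scale the highest tail control of ccnd1.L was 11.35 and the lowest hindlimb control 12.33, and for ccnd2.L the values were 12.09 and 13.35.

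The difference passed in each control set on its own. In the T3 and the inhibitor controls both genes met the minimum for a test through the 3 hindlimb arrays alone. The p-values there set hindlimb signal against tail values that were not above background. In those 2 sets the test could be run in 12 of 15 alternatives for each gene. For ccnd1.L the T3 controls differed by −2.12 (SE 0.50, adjusted p = 0.000311, 50% of pairs called), with the value of 2.24-fold given above. The T4 controls differed by −2.33 (SE 0.50, adjusted p = 0.000183, 36% called). The inhibitor controls differed by −2.56 (SE 0.50, adjusted p = 2.23e-05, 50% called). The fold values given above set the mean of the hindlimb arrays against a limit for each tail array. That limit was the lowest signal above background on the array, or the pair's own value where that was higher. Own values that were not above background set it on some arrays, so it is not a detection limit. For ccnd2.L the corresponding differences were −3.29, −2.50 and −3.20 (SE 0.44 each), with adjusted p-values of 1.75e-08, 8.08e-06 and 8.54e-08.

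Exposed animals gave smaller mean differences in the same direction. Over T3, T4, PTU, MMI and PER the mean of tail minus hindlimb was −1.72 for ccnd1.L (SE 0.21, adjusted p = 6.51e-10) and −2.52 for ccnd2.L (SE 0.19, adjusted p = 3.23e-16), where 52 of 89 tested pairs passed, 58.4%. Among exposed tails 9 of 17 arrays were above background for ccnd1.L and 12 of 17 for ccnd2.L. The gap between these exposed means and the control means was not tested. The effect in tail minus that in hindlimb was tested for each exposure against its own control, and none passed for either gene. For PTU, MMI and PER, and for ccnd1.L with T3, too few tail arrays were above background to test the tail effect itself. Those tests met their minimum through hindlimb arrays, so they cannot decide whether the effects differ between the tissues.

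With ccnd2.L all 5 exposures passed one by one, at −2.06 with T3 (SE 0.38), −2.59 with T4 (SE 0.38), −3.27 with PTU (SE 0.44), −2.51 with MMI (SE 0.49) and −2.17 with PER (SE 0.44). The PER difference of ccnd2.L was −1.41 without tail replicate 2 and −2.96 without tail replicate 1, and passed in both. With ccnd1.L 4 passed, at −1.52 with T3 (SE 0.43, adjusted p = 0.00268), −1.71 with T4 (SE 0.43, adjusted p = 0.000693), −2.45 with MMI (SE 0.50, adjusted p = 5.00e-05) and −1.99 with PER (SE 0.50, adjusted p = 0.000984). Tail signal was scarce behind some of these calls. Under PTU only 1 tail of 3 exceeded the background limit for ccnd2.L, and under MMI the same held for ccnd1.L. Their 3 hindlimb arrays alone met the minimum for a test. Those 2 p-values thus set hindlimb signal against tail values that mostly lay under the limit. Fewer than 3 tail arrays were above background also for ccnd2.L with MMI (2 of 3), both genes with PER (2 of 3 each) and ccnd1.L with T3 (2 of 4). The shares of pairs called were 50.8% with T3, 58.6% with T4, 30.6% with PTU, 45.7% with MMI and 39.2% with PER. The T3 difference of ccnd1.L lost its call with no scaling between arrays (−1.03, adjusted p = 0.112) and with bright centring (−0.78, adjusted p = 0.12).

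PTU was the exception for ccnd1.L, at −0.92 (SE 0.50, 95% interval −1.92 to 0.08, adjusted p = 0.162). Its hindlimbs read 3810, 6804 and 8620 and its tails 564, 137 and 4136, of which the last was above background, with spots of 3584 and 4689. One hindlimb value thus lay below the highest tail value. Without that tail animal the difference was −1.93 (adjusted p = 0.000698), and without the hindlimb animal with an empty spot it was −1.37 (adjusted p = 0.0437). It was −0.27 without tail replicate 2. The difference also passed with no scaling between arrays (−1.96, adjusted p = 0.0139) and with array weights (−1.23, adjusted p = 0.0244), and the call thus depends on the setting.

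**Figure D2:**
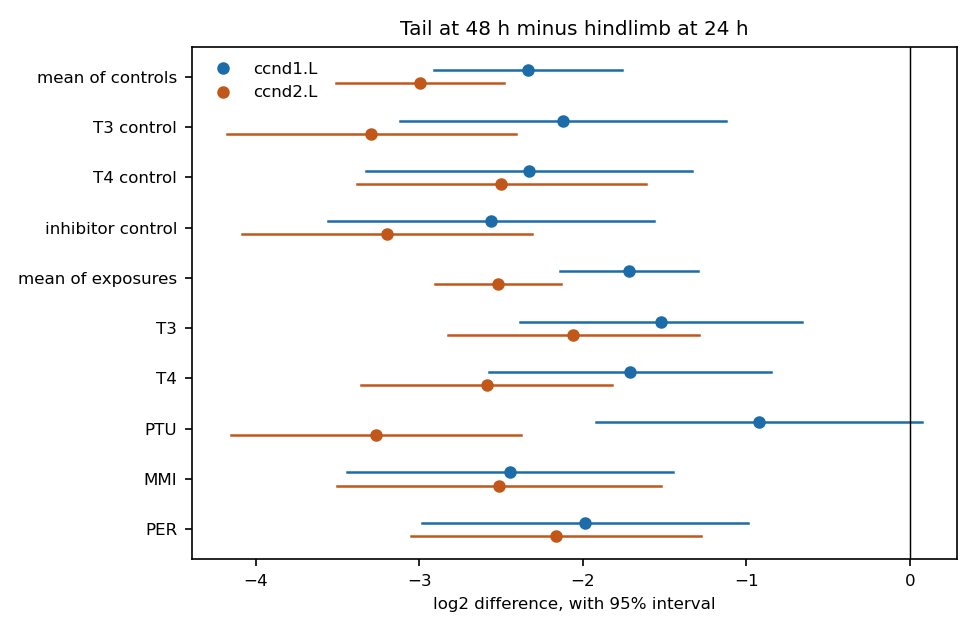
Log2 difference of tail at 48 h minus hindlimb at 24 h for ccnd1.L and ccnd2.L, with 95% intervals, for the mean of the controls, each control set, the mean of the exposures and each exposure. The interval of ccnd1.L with PTU reaches 0.08, and all other intervals lie below 0.

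The forest plot of tissue differences gives the 10 estimates of each gene side by side. The cell-cycle genes that work beside the D-type cyclins were mostly too dim to compare. Of a list of 30 partners and targets of D-type cyclins only ccne1.L, which acts with Cdk2 after them, and cdk2.S itself were on the array. They were above background on 0 and 1 of the 64 arrays and were tested in no comparison. Of 8 genes of DNA replication, pcna.S, the sliding clamp of the DNA polymerases, was above background on 38 of 38 hindlimb and 25 of 26 tail arrays. Of 2 genes of mitosis, cdk1.S, the kinase that starts it, was above background on 35 of 38 and 13 of 26.

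Both were lower in untreated tails too, pcna.S by −1.73 (SE 0.21, adjusted p = 9.88e-10) and cdk1.S by −1.71 (SE 0.30, adjusted p = 3.88e-06). They were the 2 of these 10 genes that were bright enough for a test in the controls. In exposed animals 3 replication genes were. There pcna.S differed by −1.34 (SE 0.16) and gmnn.S, geminin, which stops DNA from being licensed again, by −0.65 (SE 0.21, adjusted p = 0.0088), while mcm3.L, a subunit of the replicative helicase, read −0.47 (SE 0.23, adjusted p = 0.0743). Of the mitosis genes cdk1.S differed by −0.91 (SE 0.22, adjusted p = 0.000544). With bright centring gmnn.S read −0.33 and cdk1.S −0.54, and neither passed. Among 6 genes of upstream signalling 1, gli2.S, a transcription factor of hedgehog signalling, was tested in exposed animals, and it did not pass (−0.35, SE 0.20, adjusted p = 0.122).

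The tissues also differed in markers of muscle, of which 3 of 17 listed genes were on the array. Desmin, des.1.S, was above background on 6 of 38 hindlimb and 25 of 26 tail arrays, and it was higher in untreated tails by 2.87 (SE 0.33, adjusted p = 3.17e-10). The early muscle regulator myf5.L was above background on 24 of 38 and 4 of 26, and it was lower by −1.18 (SE 0.37, adjusted p = 0.0068). The third, myf6.L, was above background on 0 arrays. The summed intensity of the 3 ran from 321 to 3900 over the untreated hindlimbs at 24 h and from −17.8 to 17577 over the untreated tails. The haemoglobin gene hbd.S differed by 0.23 (SE 0.27, adjusted p = 0.545). The limb, cartilage and nervous system markers pitx1.L, col2a1.L and neurod1.L were above background on at most 2 arrays of either tissue, so they do not check the labelled tissues. The part of the muscle markers in the cyclin difference was not tested.

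The ratio of the 2 cyclins within an array is not altered by a factor common to all spots of that array. Quantile normalization can alter it, so unscaled values were used to ask whether the genes changed unequally. The log2 of ccnd2.L minus the log2 of ccnd1.L, without scaling, was 1.31 ± 0.55 (SD, n = 9) in untreated hindlimbs and 0.49 ± 0.73 (SD, n = 9) in untreated tails. The difference was −0.81, with p = 0.0196 by an exact two-sided permutation test and 0.274 after adjustment over the 14 comparisons of this kind. That test, too, shuffled arrays freely over the control sets. The level of the ratio has no meaning of its own, since the pairs are different probes, and 7 of 9 tail values of each gene were not above background. An unequal drop of the 2 genes was therefore not shown after adjustment.

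T3 and T4 raise thyroid hormone, and the question was whether the hindlimb cyclins follow within 24 h. Neither changed detectably. With T3 ccnd1.L read 3554, 3040, 8441 and 6284 against controls of 4456, 3734 and 7797, and the difference was 0.07 (SE 0.27, 95% interval −0.48 to 0.62, adjusted p = 0.996). With T3 ccnd2.L read 12226, 15136, 21000.3 and 16872 against 22347, 11551 and 16769, a difference of −0.03 (SE 0.20, 95% interval −0.44 to 0.38, adjusted p = 0.996). The groups overlapped for both genes. Of the 53 pairs tested with limma 0% passed, and 0 had an unadjusted p under 0.05.

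With T4 ccnd1.L read 6357, 6354, 7354 and 4751 against controls of 7127, 4262 and 3854, and the difference after normalization was −0.20 (SE 0.27, 95% interval −0.75 to 0.36, adjusted p = 0.651). With T4 ccnd2.L read 21032, 15610.3, 14457 and 17114 against 13504, 13253 and 13133. All 4 exposed animals lay above all 3 controls as deposited, but after normalization the groups overlapped, at 14.20 to 14.58 against 14.14 to 14.35. The difference was 0.15 (SE 0.20, 95% interval −0.26 to 0.56, adjusted p = 0.651). Of the 44 pairs tested 0% passed with limma, and 6 had an unadjusted p under 0.05. The doses of T3 and T4 differ, so the hormones were not compared with each other.

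In tail at 48 h ccnd2.L was above background in all 4 animals given T3 and in none of their 3 controls. The exposed animals read 6052, 4583, 4739 and 1645, and the controls 1298, 2150.3 and 61.6. The lowest exposed value lay among the controls. The noise SD was 1042 to 1260 on the control arrays and 393 to 1135 on the exposed arrays, so the controls had a higher limit for being above background. The 4 exposed arrays alone met the minimum for a test. The exposed mean was 1.46-fold over a limit set for the control arrays in the way given above. That value leaves out the spread between animals. The limit is not a detection limit, so 1.46-fold is not a minimum rise. The difference was 1.26 (SE 0.58, 95% interval 0.06 to 2.45, adjusted p = 0.347). It did not pass, and of the 52 pairs tested 0% passed with limma, where 6 had an unadjusted p under 0.05. Under 18 alternatives the value ran from 0.74 with the first spot alone to 1.78 with the second, and it passed in 0 of them.

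Under the same exposure ccnd1.L in tail read 3691, 2513, 1256 and 984 against −554, 2021 and 618. With 2 of 4 and 0 of 3 arrays above background it was below the minimum of 3 arrays set for a test, and its difference was 0.71 (SE 0.64). A fit of all pairs without that minimum gave it an adjusted p of 0.85. With T4 it read 1646, 1838, 1520 and 468 against 1000.2, 1351 and −4.44, a difference of 0.48 (SE 0.64, adjusted p = 0.868). With T4 ccnd2.L read 819, 2711, 2101 and 2417 against 4992, 2833 and 229, a difference of 0.05 (SE 0.58, adjusted p = 0.97). The T4 groups overlapped for both genes, and of the 58 pairs tested 0% passed with limma, with 4 at an unadjusted p under 0.05. Of the cell-cycle genes pcna.S differed by 0.01 with T3 in tail (SE 0.40) and cdk1.S by 0.78 (SE 0.57, adjusted p = 0.685).

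Over both hormones, each against its own control, the mean effect was −0.06 for ccnd1.L and 0.06 for ccnd2.L in hindlimb (SE 0.19 and 0.14). In tail it was 0.59 (SE 0.45, adjusted p = 0.748) and 0.65 (SE 0.41, adjusted p = 0.536). The share of pairs called was 1.75% in hindlimb and 0% in tail, where 8 of 69 had an unadjusted p under 0.05. The T3 effect on ccnd2.L in tail minus that in hindlimb was 1.23 (SE 0.58, adjusted p = 0.949), and 0% of 69 pairs passed that test with limma, with 2 at an unadjusted p under 0.05. The T4 effects in tail minus those in hindlimb were 0.62 for ccnd1.L (SE 0.66) and −0.09 for ccnd2.L (SE 0.58), and neither passed, where 1.59% of 63 pairs did.

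**Figure D3:**
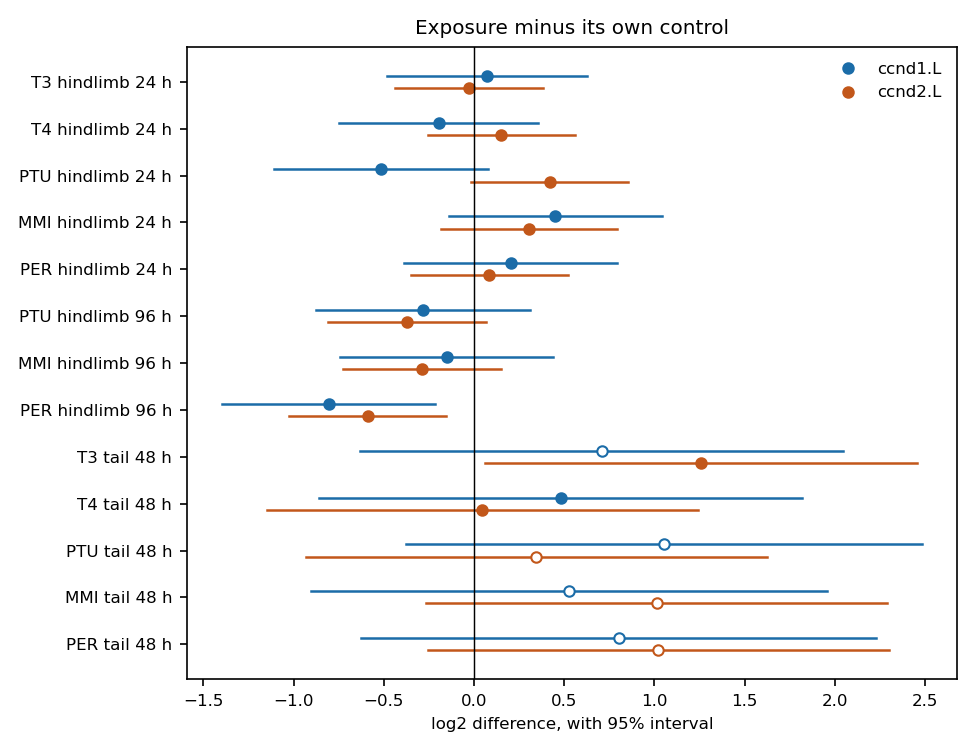
Log2 difference of each of the 13 exposures from its own control for ccnd1.L and ccnd2.L, with 95% intervals, normalized within tissue. Open points were not tested because fewer than 3 arrays were above background. The intervals of both genes with PER at 96 h in hindlimb, and of ccnd2.L with T3 in tail, lie to 1 side of 0, and no difference passed after adjustment.

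The forest plot of exposures covers the inhibitors as well. At 24 h in hindlimb none of the 3 passed for either cyclin. With PTU the genes read in opposite directions. With PTU ccnd2.L read 18035, 24141 and 25506 against the shared controls of 8782, 13576 and 33267, which overlapped as deposited. After normalization the groups stood at 14.35 to 14.54 against 13.72 to 14.29 and did not overlap. How many other pairs parted in this way was not counted. The difference was 0.42 (SE 0.21, 95% interval −0.02 to 0.86, adjusted p = 0.965), where 0% of 43 pairs passed and 0 had an unadjusted p under 0.05 with limma. The difference of ccnd1.L was −0.52 (SE 0.29, 95% interval −1.11 to 0.07, adjusted p = 0.965), and −0.06 without the animal with an empty spot. Within an array the ratio of ccnd2.L to ccnd1.L was higher with PTU by 0.99 on the log2 scale, with p = 0.2 by an exact permutation test that can reach 0.1 at the lowest.

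With MMI at 24 h ccnd1.L read 13297, 21786 and 9260 against 6425, 3801 and 17024, a difference of 0.45 (SE 0.29, adjusted p = 0.571). The gene ccnd2.L read 32542 and 18737 in its 2 measured animals, a difference of 0.30 (SE 0.24, adjusted p = 0.571). With PER at 24 h ccnd1.L read 6893, 9216 and 5027 and ccnd2.L 13383, 16236 and 14498, with differences of 0.20 (SE 0.29, adjusted p = 0.812) and 0.08 (SE 0.21, adjusted p = 0.819). All of these groups overlapped with the controls after normalization. For MMI 0% of 40 pairs passed and 1 had an unadjusted p under 0.05, and for PER 0% of 47 passed and 3 did, with limma.

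At 96 h the inhibitor groups were lower than their control in both genes after quantile normalization, and none of these differences passed. The direction depended on the scaling. With median centring ccnd1.L read 0.31 with PTU, 0.24 with MMI and 0.069 with PER. With it ccnd2.L read 0.12, 0.094 and −0.08. With no scaling the MMI differences were 0.33 for ccnd1.L and 0.19 for ccnd2.L. The shared controls read 5976, 13428 and 12455 for ccnd1.L and 9281, 41589 and 23219 for ccnd2.L. With PTU ccnd1.L read 6817, 9183 and 8305 and ccnd2.L 12878, 15719 and 17198, with differences of −0.28 (SE 0.29, adjusted p = 0.662) and −0.37 (SE 0.21, adjusted p = 0.335) where 8.51% of 47 pairs were called. With MMI they read 13244, 14902 and 8934, and 26112, 28752 and 17383, with differences of −0.15 (SE 0.29, adjusted p = 0.801) and −0.29 (SE 0.21, adjusted p = 0.495) where 6.9% of 29 were called. As deposited, the MMI animals lay within the range of the controls for ccnd2.L.

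PER gave the largest differences of the 3 at 96 h. The gene ccnd1.L read 3257, 19438 and 11402 and ccnd2.L 7228, 34677 and 18728, which as deposited overlapped the controls. After normalization ccnd1.L stood at 12.22, 12.49 and 12.51 against 13.21, 13.61 and 12.82, and ccnd2.L at 13.83, 13.77 and 13.33 against 13.91, 14.52 and 14.27. The groups then did not overlap for either gene. How many other pairs parted in this way was not counted. In this comparison 2.86% of 35 pairs were called with limma, and 7 had an unadjusted p under 0.05. The differences were −0.81 (SE 0.29, 95% interval −1.40 to −0.21) and −0.59 (SE 0.21, 95% interval −1.03 to −0.15), both with an adjusted p of 0.104.

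These 2 differences rest on the scaling. With no scaling between arrays they were −0.14 and −0.30, and with median centring 0.07 and −0.08, where the median of all tested pairs moved from 0.22 to 0.73. The first spot of ccnd1.L gave −0.47 and the second −1.14, and on control replicate 2 its spots read 5484 and 21372. Without control replicate 3 the difference of ccnd1.L was −1.01 and passed (adjusted p = 0.0267). In the same comparison pcna.S read 0.24 (SE 0.21) and cdk1.S 0.13 (SE 0.49), neither of which passed.

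**Figure D4:**
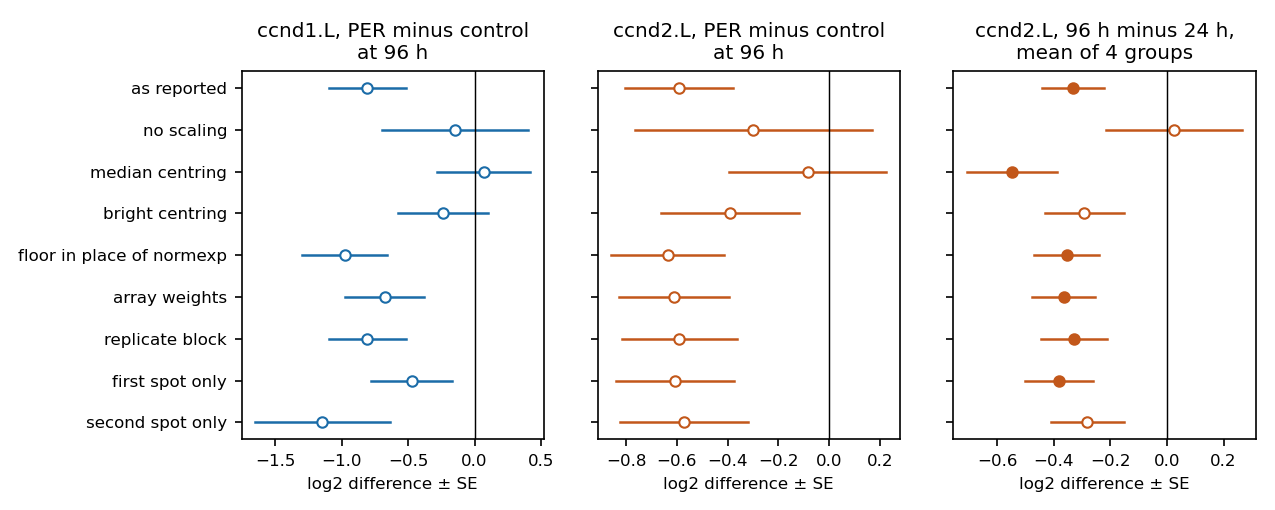
Log2 differences ± SE of ccnd1.L and ccnd2.L with PER at 96 h, and of ccnd2.L at 96 h minus 24 h over 4 groups, under 9 settings of the processing. Filled points have an adjusted p under 0.05. The PER difference of ccnd1.L goes from −0.81 as reported to 0.07 with median centring, and the time difference of ccnd2.L from −0.33 to 0.02 with no scaling.

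Over the 3 inhibitors at 96 h the mean difference was −0.41 for ccnd1.L (SE 0.24, adjusted p = 0.331) and −0.42 for ccnd2.L (SE 0.17, 95% interval −0.77 to −0.06, adjusted p = 0.121), with 1.61% of 62 pairs called. With median centring this mean was 0.21 and 0.043. At 24 h it was 0.05 (SE 0.24) and 0.27 (SE 0.18), with 0% of 56 called with limma and 6 at an unadjusted p under 0.05. The 3 inhibitors share their control animals, so their values are not independent of each other, and their doses differ. The effect at 96 h minus that at 24 h was tested for each inhibitor. It was −1.01 for ccnd1.L with PER (SE 0.41, adjusted p = 0.148), −0.79 for ccnd2.L with PTU (SE 0.30, adjusted p = 0.225) and −0.67 for ccnd2.L with PER (SE 0.30, adjusted p = 0.173). For PTU, MMI and PER 0% of 65, 48 and 62 pairs passed that test with limma, and 8, 4 and 13 had an unadjusted p under 0.05.

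In tail at 48 h neither cyclin was above background in any of the 3 control animals of the inhibitor experiment, and both were above it in some exposed animals. The controls read 375, −192 and 217 for ccnd1.L and 244, 302 and 355 for ccnd2.L, on arrays whose noise SD was 211 to 380. With PER ccnd1.L read 880, 1617 and 2.90 and ccnd2.L 5031, 69.3 and 1252, and for each gene 2 of 3 were above background, not the same 2 animals. With MMI they read 436, 130 and 4054, and 1932, 964 and 8042, and replicate 3 was the highest for both genes. With PTU ccnd2.L read 1662, 276 and 722, with the first above background.

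None of these 6 differences met the minimum of 3 arrays above background for a test. They were 1.05 and 0.35 with PTU, 0.53 and 1.01 with MMI and 0.80 and 1.02 with PER, in the order ccnd1.L and ccnd2.L (SE 0.69 and 0.61). A fit of all pairs without that minimum gave adjusted p-values from 0.762 to 0.977. Single animals moved most of these values. Leaving out 1 animal, ccnd1.L ran from 0.13 to 1.68 with PTU, lowest without the 1 bright tail, from 0.099 to 0.87 with MMI, lowest without replicate 3, and from 0.30 to 1.36 with PER. The gene ccnd2.L ran from 0.18 to 0.63 with PTU, from 0.70 to 1.33 with MMI and from 0.30 without PER replicate 1 to 1.76 without PER replicate 2. Over the 3 inhibitors the mean was 0.79 for both genes (SE 0.56 and 0.50), with 4 and 5 of 9 exposed and 0 of 3 control arrays above background. The exposed arrays alone met the minimum for this test, which sets them against control values that were not above background. Neither gene passed (adjusted p = 0.563 for each), where 0% of 59 pairs passed with limma and 4 had an unadjusted p under 0.05. The PTU effect on ccnd1.L in tail minus that in hindlimb was 1.64 (SE 0.70, adjusted p = 0.369, 0% of 63 pairs called with limma, 7 at an unadjusted p under 0.05), and 0.64 without the 1 bright tail. This test met its minimum through hindlimb arrays.

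Asked as 1 question per tissue, no exposure effect was found for either cyclin. A moderated F test over the 8 exposure effects in hindlimb gave F = 2.68 for ccnd1.L (adjusted p = 0.336) and 1.64 for ccnd2.L (adjusted p = 0.543), where 0% of 90 pairs passed with limma and 11 had an unadjusted p under 0.05. Over the 5 effects in tail it gave 0.87 (adjusted p = 0.808) and 1.78 (adjusted p = 0.547), where 0% of 78 passed and 4 did. The 3 control groups of hindlimb at 24 h, which come from separate exposure sets, did not pass for ccnd1.L (F = 2.01, adjusted p = 0.341) or ccnd2.L (F = 0.72, adjusted p = 0.674), and 0% of 54 pairs passed with limma, with 13 at an unadjusted p under 0.05. In tail 24.1% of 54 pairs differed between the 3 control groups, and the cyclins were below the minimum for a test there. In the 13 single exposures 1 or 2 of the 8 replication genes were tested, at most 1 of the 2 mitosis genes, with 0 in the 3 inhibitor groups of tail, and 0 of the partner and upstream lists. None of those tested passed, where 0% to 8.51% of all tested pairs did.

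The inhibitor experiment also compares hindlimbs at 96 h with those at 24 h. Over the control, PTU, MMI and PER groups ccnd2.L was lower at 96 h by 1.26-fold, a difference of −0.33 (SE 0.11, 95% interval −0.56 to −0.11, adjusted p = 0.0216). The gene ccnd1.L differed by −0.08 (SE 0.14, 95% interval −0.37 to 0.22, adjusted p = 0.707). Of the 82 pairs tested 25 passed, 30.5%, with 18 higher and 7 lower, and the median over all tested pairs was 0.21, so ccnd2.L was among the fewer pairs that were lower.

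By group ccnd2.L stood at 13.72, 14.15 and 14.29 at 24 h and 13.91, 14.52 and 14.27 at 96 h in controls, a difference of 0.18 (SE 0.21, adjusted p = 0.595, 20% of pairs called). With PTU it stood at 14.35, 14.54 and 14.52 and then 13.66, 13.71 and 14.22, and the difference of −0.61 (SE 0.21, adjusted p = 0.0388, 20.3% called) passed. With MMI it stood at 14.29 and 14.43 and then 13.89, 14.16 and 13.79, a difference of −0.41 (SE 0.24, adjusted p = 0.203, 30.3% called). With PER it stood at 14.14, 14.03 and 14.24 and then 13.83, 13.77 and 13.33, a difference of −0.49 (SE 0.21, adjusted p = 0.0679, 20.9% called). On this scale every measured animal at 96 h lay below every one at 24 h in the 3 inhibitor groups, while in the controls the times overlapped. As deposited, the times overlapped with MMI and with PER as well. How many other pairs parted in this way was not counted, so the parting cannot be called particular to ccnd2.L. With median centring the control difference of ccnd2.L was −0.42, so the contrast with the controls depends on the scaling. As given above, the effect at 96 h minus that at 24 h passed for no inhibitor. The differences of ccnd1.L were 0.27 in controls, 0.50 with PTU, −0.34 with MMI and −0.74 with PER (SE 0.29 each), and none passed. With a floor in place of normexp the PER difference of ccnd1.L passed (−0.91, adjusted p = 0.0368), and with array weights that of ccnd2.L did (−0.54, adjusted p = 0.0492), while with no scaling they read 0.36 and 0.22.

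**Figure D5:**
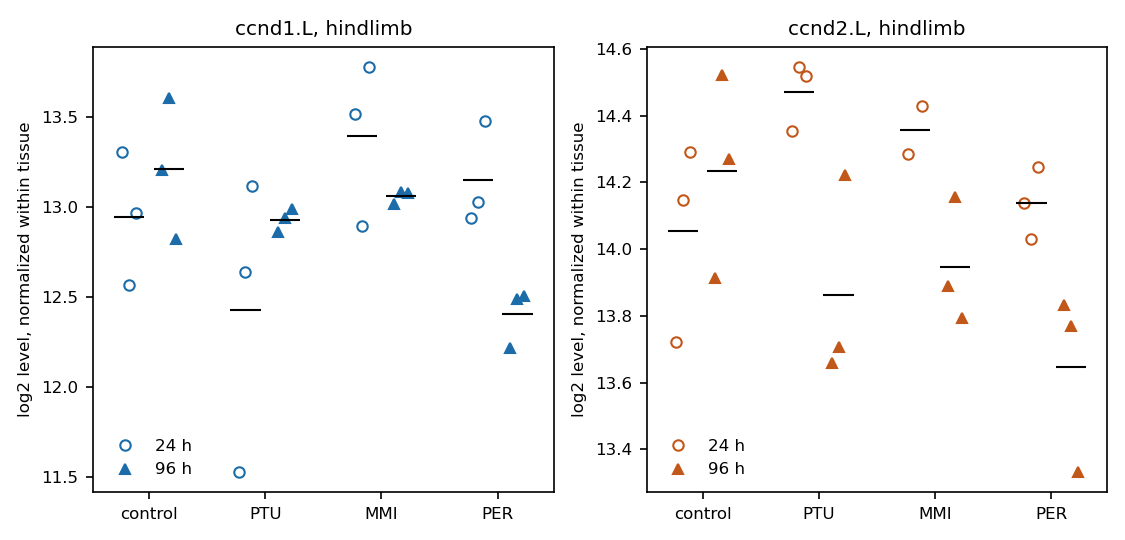
Log2 level, normalized within tissue, of ccnd1.L and ccnd2.L in single hindlimbs at 24 h (open circles) and 96 h (filled triangles), with black bars at group means, for the control, PTU, MMI and PER groups. The PTU animals of ccnd2.L go from 14.35 to 14.54 at 24 h to 13.66 to 14.22 at 96 h.

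The plot of the times by group shows this pattern, and it too rests on the scaling. With no scaling the mean time difference of ccnd2.L was 0.02 (adjusted p = 0.932), where the median of all tested pairs moved from 0.21 to 0.75, and with median centring it was −0.55. It passed in 29 of 34 alternatives, among them all 24 fits that left out 1 animal. In 1 of those fits the animal left out, MMI at 24 h, replicate 1, had no value of ccnd2.L. Besides no scaling, the call was lost with bright centring (adjusted p = 0.081), with the second spot alone (0.115), with no filter on dim pairs (0.239) and in a fit of only the groups compared (0.0688). The PTU difference of ccnd2.L passed in 4 of its 16 alternatives, and it lost its call without any 1 of the 3 PTU animals at 24 h and without replicate 1 or 2 at 96 h, at −0.68 to −0.51. The ratio within an array was again taken without scaling, so a factor common to all spots of an array does not alter it. The log2 of ccnd2.L minus that of ccnd1.L was 0.90 ± 0.29 (SD, n = 12) at 96 h and 1.23 ± 0.67 (SD, n = 11) at 24 h. The difference was −0.33, with p = 0.139 by a permutation test with 100000 resamples, so an unequal change of the genes was not shown. At 96 h the arrays had a noise SD of 688 to 1928, against 264 to 1340 at 24 h, and the part of the noise in the time difference of ccnd2.L was not tested.

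Of the cell-cycle genes cdk1.S moved the other way over time, higher at 96 h by 0.85 (SE 0.24, adjusted p = 0.00833), a call lost with median centring (0.69) and with either spot alone. The gene pcna.S differed by 0.20 (SE 0.11, adjusted p = 0.155), which passed with no scaling (0.52, adjusted p = 0.032) and with the first spot alone (0.29, adjusted p = 0.0439) and read −0.048 with median centring. The genes gmnn.S, mcm3.L and gli2.S did not pass, at 0.07, −0.54 and 0.10. Desmin, des.1.S, was higher at 96 h by 1.03 (SE 0.28, adjusted p = 0.00549), and the summed intensity of the 3 muscle markers ran from 331 to 15326 at 24 h and from 228 to 24273 at 96 h. The part of muscle tissue in the time difference of ccnd2.L was not tested.

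Whether animals of 1 group that were high for 1 cyclin were high for the other depended on the scaling. Without scaling the deviations from the group means correlated across 37 hindlimb arrays with Pearson's r = 0.775 and Spearman's rho = 0.789 (permutation p = 1e-05 for each, the smallest that 100000 resamples give, adjusted 2e-05 over 2 tissues), and with r = 0.717 without the 2 farthest arrays. After normalization within tissue r was 0.125 and rho 0.179 (permutation p = 0.46 and 0.287), and r was 0.206 without the 2 farthest. Across 26 tail arrays r was 0.4 and rho 0.427 without scaling (permutation p = 0.0427 and 0.0301), and 0.509 without the 2 farthest. After normalization in tail r was 0.263 and rho 0.378 (permutation p = 0.194 and 0.056), and r was 0.485 without the 2 farthest. The permutations shuffled deviations freely over groups, although those within a group depend on each other through the group mean. The p-values of these correlations may therefore be too small. The arrays share their brightness between the genes, and no relation between the cyclins passed after normalization.

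Across the 20 group means, in which hindlimb and tail form separate sets, the 2 cyclins followed each other with r = 0.951. The named pairs most like ccnd1.L among the 66 compared were a gapdh.S pair, a glycolytic enzyme (r = 0.917), myf5.L (0.859) and gmnn.S (0.848). Those most like ccnd2.L were the same gapdh.S pair (0.926), pcna.S (0.911) and gmnn.S (0.859). Over the 12 hindlimb groups alone the cyclins had r = 0.210 with each other. There ccnd1.L was most like ldhb.S, a lactate dehydrogenase (0.543), rpl35a.S, a ribosomal protein (0.485), and nme2.L, a nucleoside diphosphate kinase (0.464). The pairs most like ccnd2.L were thdl17.L (0.748) and 2 further gapdh.S pairs (0.724 and 0.706). Those 2 were not among the 10 pairs most like either cyclin over the 20 groups. The first gapdh.S pair was not among the 10 most like either over the hindlimb groups, so pairs of this gene differed. These values describe group means that share the scaling of their arrays.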

How the data were processed

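The authors deposited background-subtracted spot intensities on a linear scale. One array of each set of tissue, time and experiment held whole numbers only, so a scaling step within sets is likely. The sources used here name neither that step nor the scanner and its software. A gene name was found for 237 pairs and none for 169.

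From the deposited intensities log2 values were computed after normexp background correction (offset 50), quantile normalized within each tissue, or over all 64 arrays for tissue comparisons, levels and likeness, and averaged over duplicate spots. Testing used limma 3.58.1 in R 4.3.3 (lmFit and eBayes, 1 coefficient per group) and took in a pair if 3 or more arrays of the compared groups showed it above background. Benjamini-Hochberg adjustment ran over the pairs of 1 comparison, with a threshold of 0.05. The number of arrays limits the precision. Permutation tests used scipy 1.17.1. The named genes are the cyclins, listed cell-cycle genes that could be tested and the 3 pairs most like each cyclin. The members, the lists and the tests were chosen with earlier results of these data known. Alternatives were other scalings, a floor in place of normexp, array weights, a replicate block, single spots, no filter and leaving out each array. Bright centring sets each array to the mean of the pairs above background on most arrays.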

Additional observations from a re-analysis of the deposited data

Results flagged for a closer look

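In the tails of animals given T4, ccnd2.L of replicate 1 stood at 10.3 on the log2 scale normalized within tissue, while the other 3 animals stood at 11.45, 11.46 and 11.43. Its deposited intensity was 819, not above background, against 2711, 2101 and 2417. Dixon's ratio was 0.975 against a critical value of 0.829. This was 1 of 8 groups of 4 animals looked at over both genes, and chance marks about 1 group in 20.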

How the results depend on the processing

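The 4 mean tissue differences kept their direction and their call under every alternative run, from −2.75 to −1.89 for ccnd1.L and from −3.53 to −2.69 for ccnd2.L in controls, and from −2.19 to −1.50 and from −3.02 to −2.26 in exposed animals. The replicate numbers were not used to pair the animals in the main fit, since in none of the 13 exposures did all 3 correlations of same-numbered arrays exceed 0.1. In groups this small such correlations cannot exclude a pairing. The replicate block ended 1 call, that of ccnd2.L with PTU at 96 h minus 24 h (−0.61, adjusted p = 0.061). The mean time difference of ccnd2.L lost its call with bright centring (−0.29), no filter (−0.33), only the groups compared (−0.33) and the second spot (−0.28), and it turned to 0.024 with no scaling. Counts of called pairs ran from 0 to 9 with PTU, 0 to 4 with MMI and 0 to 10 with PER at 96 h (main 4, 2 and 1), from 0 to 11 for their mean (main 1) and from 17 to 53 for the time mean (main 25).

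Apart from that time difference of ccnd2.L, differences that turned in direction had no call. With no scaling ccnd1.L read 0.36 for PER and 0.32 for the mean at 96 h minus 24 h, 0.33 for MMI at 96 h, −0.12 for PER at 24 h, −0.044 for T3, 0.33 for T4 and 0.15 for the hormone mean in hindlimb. With no scaling ccnd2.L read 0.22 for PER at 96 h minus 24 h, 0.19 for MMI at 96 h, −0.11 for PER at 24 h, −0.017 for T4 in tail and 0.34 for the PTU effect in tail minus hindlimb. The untested MMI differences in tail moved to 1.64 for ccnd1.L and 2.29 for ccnd2.L, as the median of all tested pairs moved from −0.31 to 0.89.

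With median centring ccnd1.L read −0.44 for controls at 96 h minus 24 h, 0.24 for MMI, 0.069 for PER, 0.31 for PTU and 0.21 for the inhibitor mean at 96 h, −0.038 for PER and −0.047 for the inhibitor mean at 24 h, and 0.11 for the PER effect at 96 h minus 24 h. With it ccnd2.L read −0.42 for controls at 96 h minus 24 h, 0.094 for MMI, 0.12 for PTU and 0.043 for the inhibitor mean at 96 h, −0.033 for PER, 0.038 for T3, −0.052 for T4 and −0.0072 for the hormone mean at 24 h, −0.0041 for T4 in tail and 0.048 for the T4 effect in tail minus hindlimb, and pcna.S read −0.048 for the time mean. With bright centring ccnd1.L read 0.019 for the time mean, 0.042 for MMI at 96 h, −0.042 for T3, 0.087 for T4 and 0.022 for the hormone mean in hindlimb.

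With single spots ccnd1.L read −0.069 for T3 in hindlimb (first), −0.021 for the inhibitor mean at 24 h (second) and −0.083 for the MMI effect in tail minus hindlimb (first, and −0.079 with a floor). With single spots ccnd2.L read 0.042 for T3 in hindlimb (first), −0.0011 for PER at 24 h (second), and 0.0049 for PTU and 0.25 for T4 as effects in tail minus hindlimb (first), and cdk1.S read −0.38 for PER at 96 h (second). For T4 in tail ccnd2.L read −0.14 with the second spot, −0.14 with a floor, −0.18 with bright centring and −0.30 with array weights. The cause was not tested beyond these settings.

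Leaving out 1 animal turned 0 of the 21 called differences of the cyclins and moved 1 by over 1.5 times on the log2 scale, ccnd2.L with PER in tail minus hindlimb (−2.96 to −1.41). Of the 61 uncalled ones it turned 12 and moved a further 36 by over 1.5 times, such as ccnd1.L in tail with T3 (0.20 to 1.26), T4 (0.065 to 0.79) and PER (0.30 to 1.36), its T3 effect in tail minus hindlimb (0.11 to 1.11) and ccnd2.L with PER in tail (0.30 to 1.76). For ccnd1.L PER at 96 h (−1.01 to −0.62) gained a call, PTU in tail ran from 0.13 to 1.68, and those that turned were the time mean (−0.19 to 0.0083), MMI at 96 h (−0.35 to 0.047), the PTU effect at 96 h minus 24 h (−0.22 to 0.58), the MMI effect in tail minus hindlimb (−0.29 to 0.43), the hormone mean (−0.11 to 0.0081) and the inhibitor mean at 24 h (−0.14 to 0.23). For ccnd2.L those that turned were PER at 24 h (−0.081 to 0.20), T3 in hindlimb (−0.18 to 0.13), T4 in tail (−0.62 to 0.44), the PTU (−0.24 to 0.21) and T4 (−0.71 to 0.30) effects in tail minus hindlimb and the hormone mean (−0.012 to 0.14), and for cdk1.S PER at 96 h (−0.38 to 0.63). In tail the signal over background limits both genes, with 11 and 14 of 26 arrays above it.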
